A study of Mus musculus with 18 samples.

Results

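The genes of 10 acute phase proteins, plasma proteins that the liver releases in larger amounts during inflammation, were described across 18 mouse livers. They were taken by gene symbol from the 19057 lines of the expression table and were Saa1, Saa2, Saa3, Saa4, Lcn2, Hp, Orm1, Orm2, Orm3 and Itih4. All 10 passed the filter on low values, at least 3 livers with an RPKM (reads scaled by the length of the gene and the reads of the library) of 1 or more, as did 10507 lines in all. They were chosen by their RPKM in earlier results of these livers, where they were high in control livers, so their levels and their differences from that group are given as a description.

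The livers came from ICR mice, aged 10 weeks by their labels and male by the study's methods, with 3 livers in each of 6 groups. Con was labelled control and HFD high fat diet. AOS, alginate oligosaccharides, was given at 10 mg/kg to the AOS group, for which the labels name no diet, and to the HFD+AOS group on the high fat diet. Con-FMT and A10-FMT mice were on the high fat diet and received intestinal microbiota from control donors or from donors given AOS at 10 mg/kg, and the methods describe the contents of the donors of a group as pooled. The labels do not say how the livers of a group were kept apart as samples, so p-values measure the spread between these livers. The RPKM values come without read numbers, which leaves the depth of a library unknown.

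In the acute phase response, macrophages that meet microbial products or damaged tissue release interleukin 6, interleukin 1 and tumour necrosis factor, and hepatocytes answer through STAT3, NF-kB and C/EBP factors by transcribing genes of secreted proteins. Positive acute phase proteins, among them serum amyloid A, haptoglobin and orosomucoid, rise in plasma, and negative ones, among them albumin and transthyretin, fall. Saa1, Saa2 and Saa3 are strongly inducible in mice, whereas Saa4 is the constitutive member of its family.

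The Con livers differed among themselves more than the livers of any other group for these genes. Con replicate 1 was the highest of the 18 livers and Con replicate 3 the second for 10 of 10 members, an order held by 0.999% of all genes tested. Con replicate 2 stood apart from both. Its RPKM was 0.865 to 9.38 times the median of the 15 livers outside Con (median over members 2.12), against 1.45 to 219 times for Con replicate 1 (median 25.02) and 1.25 to 120 times for Con replicate 3 (median 14.3). The SD of log2(RPKM + 1) among the 3 Con livers had a median of 1.64 over the members and of 0.112 over all genes tested. For the other 5 groups the members' median SD was between 0.231 and 0.446. The 10 genes held 3.09% of the summed RPKM of Con replicate 1, 0.553% of Con replicate 2 and 2.05% of Con replicate 3, and from 0.364% to 0.679% (median 0.478%) of that of the other 15 livers. As the RNA is of whole liver, fewer cells of a type and less RNA per cell cannot be told apart.

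**Figure D1:**
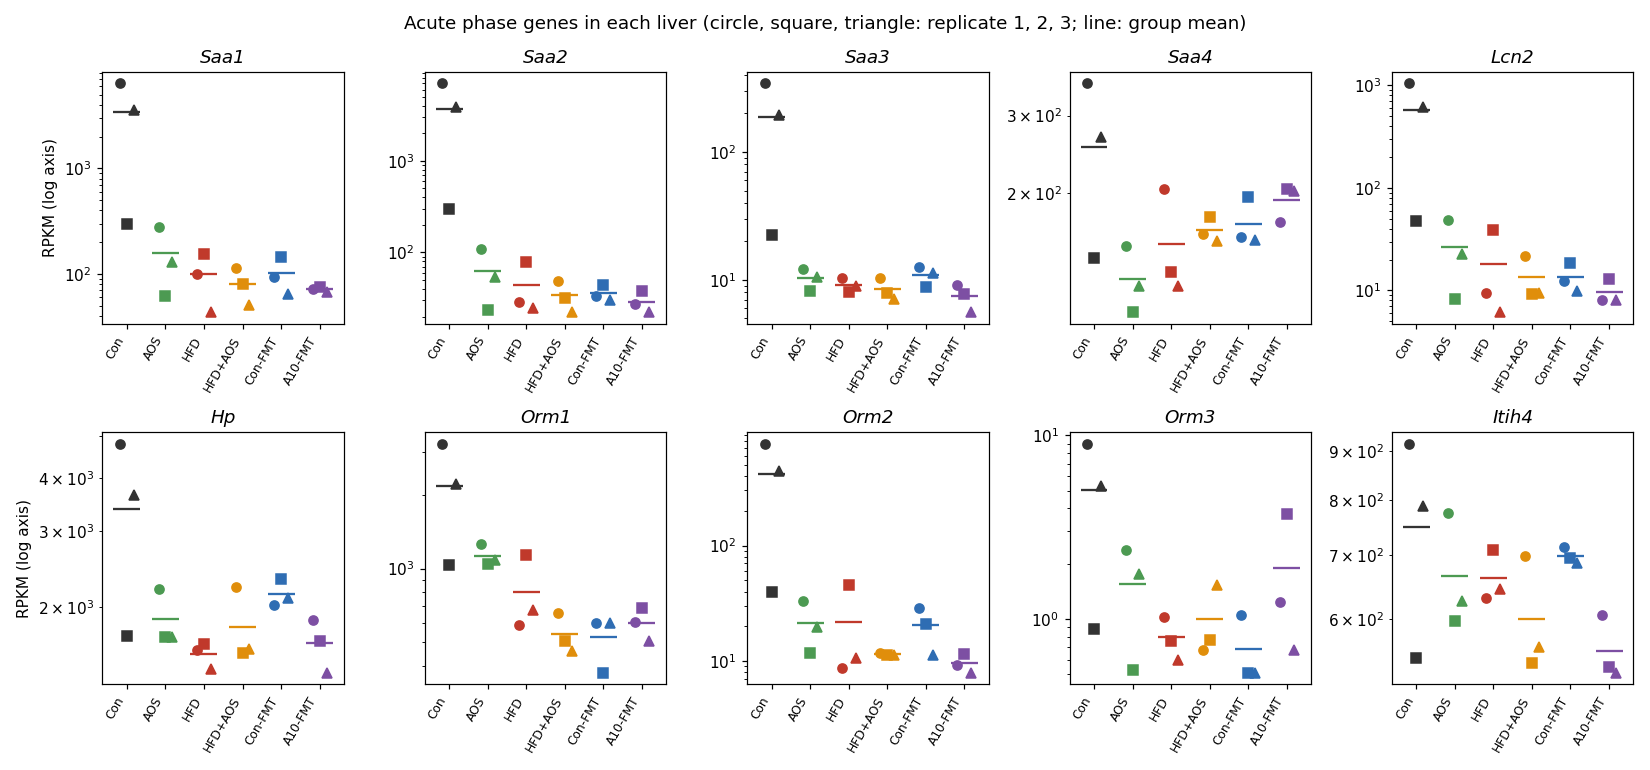
RPKM of each acute phase gene (log axis) in the 3 livers of each of 6 groups, with the group mean as a line. Con replicates 1 and 3 were above all other livers in every panel, and Con replicate 2 was within the range of the 15 livers outside Con except for Saa1, Saa2 and Saa3.

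Con replicate 3 took a place between the other Con livers for all 10 members, at 0.525 to 0.655 of the way from replicate 2 to replicate 1 on the RPKM scale (median 0.548). The same held for AOS replicate 3, at 0.00900 to 0.663 of the way (median 0.352). Over all genes tested, Con replicates 1 and 2 were apart by a log2 of 1 or more for 148, and Con replicate 3 lay between these for 98.0% of them, at a median weight of 0.526. For AOS replicate 3 it was 96.5% of 142 genes, at a median weight of 0.354. No liver of the other 4 groups was between its group mates for more than 76.8% of such genes or for more than 6 members. Whether replicate 3 of Con and of AOS is a liver independent of replicates 1 and 2 was not tested, and results on these groups are given with and without them.

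**Figure D2:**
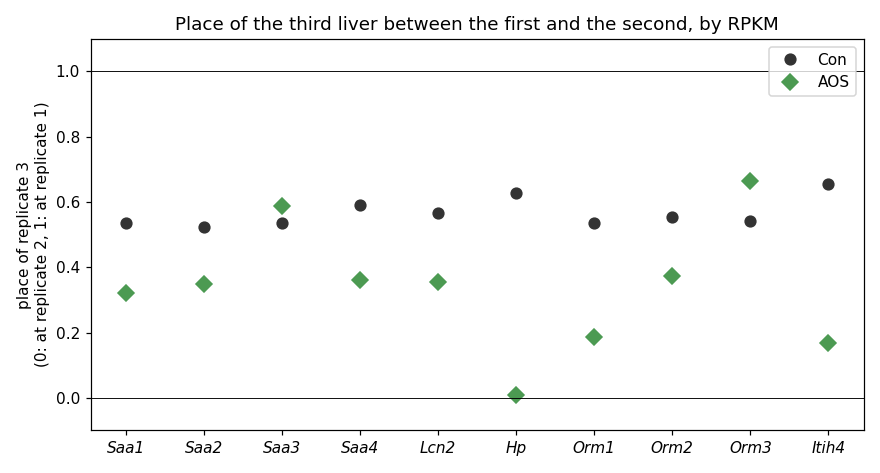
Place of replicate 3 between replicate 2 (0) and replicate 1 (1) on the RPKM scale for each member, in Con (circles) and AOS (diamonds). The Con values all lie between 0.525 and 0.655, and those of AOS spread from 0.00900 to 0.663.

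Saa1 and Saa2 encode the serum amyloid A proteins that hepatocytes secrete and that circulate with high-density lipoprotein. They lie on chromosome 7 with Saa3 and Saa4, in a stretch of 42.3 kb (chr7:46711998-46754313, GRCm38, which is the mm10 build named in the submitters' processing notes). Their coding sequences were 95.1% identical, and 13.2% of the 50-base stretches of the Saa1 transcript were also in Saa2 without a mismatch. Reads from these could have counted for both genes where every hit of a read was kept. The paper's methods let reads align with mismatches, so the part that can share reads could be larger than this. The start of the coding sequences (GENCODE transcripts Saa1-201 and Saa2-201, 150 bases) shows how close the pair is, with the 11 differing bases in capitals.
Saa1: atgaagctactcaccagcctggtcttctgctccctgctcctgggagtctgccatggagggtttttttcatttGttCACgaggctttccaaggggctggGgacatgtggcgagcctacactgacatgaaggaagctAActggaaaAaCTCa
Saa2: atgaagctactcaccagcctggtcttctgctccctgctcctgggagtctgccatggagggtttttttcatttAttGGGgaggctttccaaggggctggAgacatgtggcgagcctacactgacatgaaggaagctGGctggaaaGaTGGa

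Saa2 had an RPKM of 7018, 300.04 and 3826 in Con replicates 1, 2 and 3. It was 110.2, 23.7 and 54.0 in AOS, 29.1, 78.0 and 24.5 in HFD, and 49.4, 32.0 and 22.2 in HFD+AOS. In Con-FMT it was 33.3, 44.0 and 30.7, and in A10-FMT it was 27.2, 37.9 and 22.3. All 3 Con livers were thus above all 15 others for Saa2, although Con replicate 2 was 23.4-fold below Con replicate 1. Saa1 had an RPKM of 6422, 296 and 3569.84 in Con, 278, 61.1 and 131 in AOS, 100.4, 156 and 43.2 in HFD, and 113, 79.5 and 50.9 in HFD+AOS. In Con-FMT it was 93.9, 145 and 64.8, and in A10-FMT it was 71.6, 75.8 and 66.9. For Saa1, Con replicate 2 was 1.06-fold above AOS replicate 1, the highest liver outside Con.

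Saa3 encodes a serum amyloid A that macrophages and fat cells also make, and had much lower levels. Its RPKM was 344, 22.6 and 195 in Con, and between 5.58 in A10-FMT replicate 3 and 12.7 in Con-FMT replicate 1 in the other 15 livers, so that the Con livers again did not overlap with any other. Saa4 differed from its 3 relatives. It had an RPKM of 355, 143 and 268 in Con and 108 to 205 elsewhere, and Con replicate 2 was the 14th highest of the 18 livers for it. Saa4 was above Saa1 in 12 of the 15 livers outside Con and below it in all 3 Con livers.

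The proportion between Saa2 and Saa1 separated Con from the rest, Con replicate 2 included. The RPKM of Saa2 was 1.09, 1.01 and 1.07 times that of Saa1 in Con replicates 1, 2 and 3. In the other 15 livers it was 0.290 to 0.568 times (median 0.403), with Saa1 above Saa2 in all 15. In AOS, whose first liver had Saa1 close to the level of Con replicate 2, the ratio was 0.396, 0.388 and 0.412. How reads shared by the pair were counted is not settled by the sources, and their part in these ratios was not tested.

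Lcn2 encodes lipocalin 2, which binds the iron carriers of bacteria and is made by hepatocytes in inflammation as well as by neutrophils. It had an RPKM of 1043, 47.5 and 612 in Con and 48.7, 8.34 and 22.7 in AOS. In HFD it was 9.36, 38.8 and 6.12, and in HFD+AOS it was 21.7, 9.19 and 9.47. It was 12.3, 18.7 and 9.94 in Con-FMT and 8.10, 13.1 and 8.07 in A10-FMT. Con replicate 2 lay below AOS replicate 1 for Lcn2, and HFD replicate 2 was 6.34-fold above HFD replicate 3. Hp encodes haptoglobin, which captures free haemoglobin, and was the most abundant member by RPKM in 16 of 18 livers. Saa2 was the highest in the other two, Con replicates 1 and 3. Hp had an RPKM of 4812, 1711 and 3654 in Con and 1404 to 2317 in the 15 other livers, where it made 41.5% to 60.6% of the members' sum, against 19.3% in Con replicate 1.

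**Figure D3:**
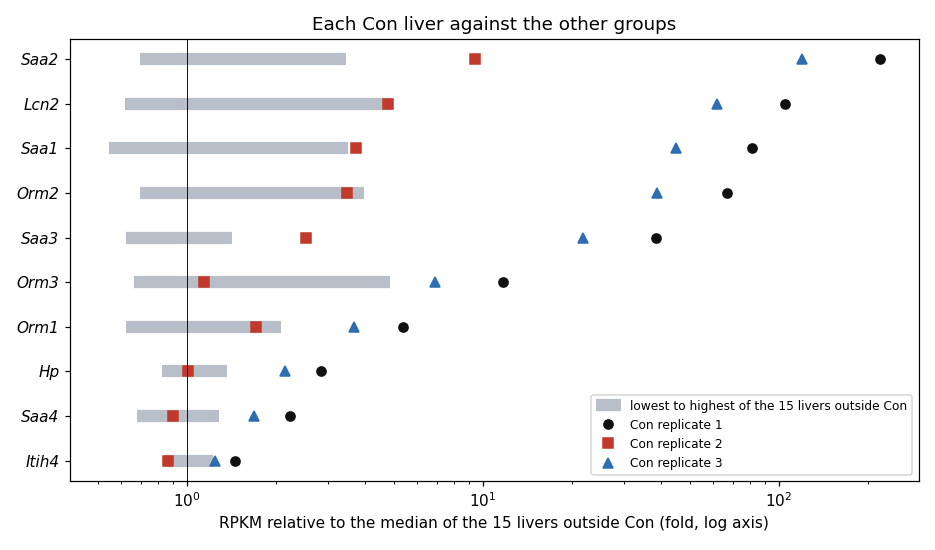
RPKM of Con replicates 1, 2 and 3 for each member relative to the median of the 15 livers outside Con (fold, log axis), with the range of those 15 as a grey bar. Con replicate 1 ranged from 1.45-fold for Itih4 to 219-fold for Saa2, and Con replicate 2 left the grey bar upwards for Saa1, Saa2 and Saa3.

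Orm1, Orm2 and Orm3 encode orosomucoids (alpha-1-acid glycoproteins), plasma carriers of small lipophilic molecules, and lie together on chromosome 4 (chr4:63344560-63365878). The coding sequences of Orm1 and Orm2 were 89.9% identical. Of the 50-base stretches of the Orm1 transcript, 20.4% were also in Orm2 without a mismatch, and reads aligned with mismatches could share more. Their first 150 coding bases (Orm1-201 and Orm2-201) are printed with the 13 differing bases in capitals, because the shares of the pair differed between livers.
Orm1: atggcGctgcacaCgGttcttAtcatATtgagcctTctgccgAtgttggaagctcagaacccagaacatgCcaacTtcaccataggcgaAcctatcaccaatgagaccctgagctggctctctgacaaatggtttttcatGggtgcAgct
Orm2: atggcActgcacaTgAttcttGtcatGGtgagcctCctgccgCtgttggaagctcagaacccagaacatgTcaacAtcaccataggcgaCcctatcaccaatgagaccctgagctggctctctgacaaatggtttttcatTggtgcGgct

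Orm2 had an RPKM of 762, 39.8 and 441 in Con. It was 33.1, 11.6 and 19.6 in AOS, 8.72, 45.4 and 10.7 in HFD, and 11.7, 11.3 and 11.3 in HFD+AOS. In Con-FMT it was 28.7, 21.1 and 11.3, and in A10-FMT it was 9.26, 11.4 and 7.95. HFD replicate 2 exceeded Con replicate 2, so that Con and HFD overlapped for Orm2. Orm1 had an RPKM of 3249.8, 1037 and 2219.7 in Con, 1258, 1049 and 1088 in AOS, and 590.2, 1140.5 and 677 in HFD. It was between 375 and 691 in the 9 livers of the HFD+AOS, Con-FMT and A10-FMT groups. Orm3 was the lowest member in all 18 livers, with an RPKM of 9.02, 0.88 and 5.28 in Con and 0.51 to 3.74 in the others. Orm2 made 19.0%, 3.69% and 16.5% of the summed RPKM of Orm1, Orm2 and Orm3 in Con replicates 1, 2 and 3 and 1.097% to 5.32% in the other 15 livers, so that Con replicate 2 fell within that range, unlike its ratio of Saa2 to Saa1.

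**Figure D4:**
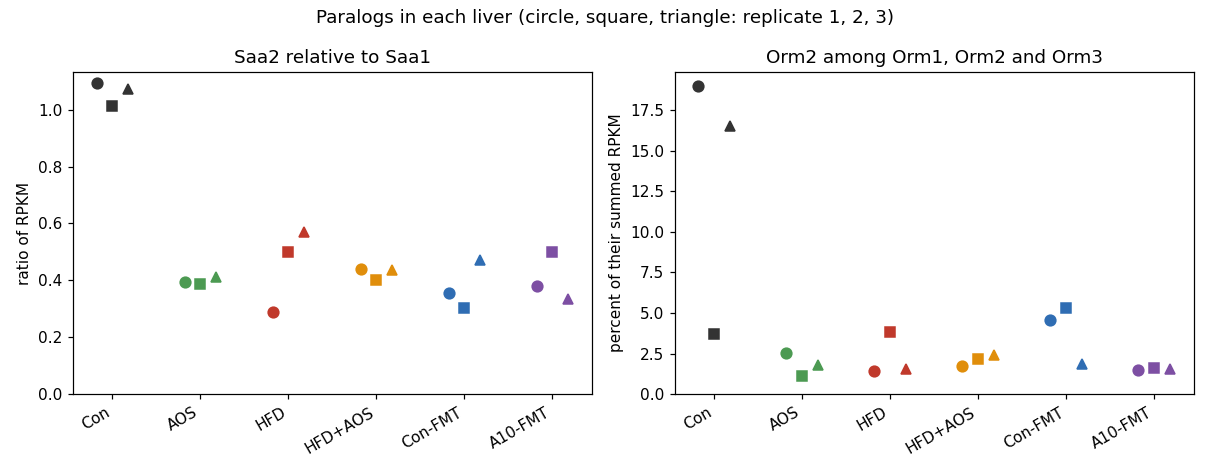
RPKM of Saa2 relative to Saa1 and share of Orm2 in the summed RPKM of Orm1, Orm2 and Orm3 (percent), in each of the 18 livers. The ratio is 1.01 to 1.09 in the 3 Con livers and at most 0.568 elsewhere, whereas the share is high (16.5% and 19.0%) in Con replicates 3 and 1 alone.

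Itih4 encodes a heavy chain of the inter-alpha-trypsin inhibitor family and varied least between Con replicates 1 and 2. Its RPKM was 916, 546 and 788 in Con and 528 to 775 in the 15 other livers. Con replicate 2 was below 12 of these and 1.68-fold below Con replicate 1. Outside Con, AOS replicate 1 was the highest of the 15 livers for 5 members (Saa1, Saa2, Lcn2, Orm1 and Itih4), and A10-FMT replicate 2 for 2 (Saa4 and Orm3).

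Between HFD and Con livers, all 10 members had a lower mean of log2(RPKM + 1) in HFD. With limma (two-sided, Benjamini-Hochberg adjustment over 10507 genes), 4 members were past an adjusted p of 0.05 as lower in HFD, beside 0.0857% of all genes tested, and nothing is read from this count because the members were known to be high in Con. Their log2 fold changes were -5.67 (SE 0.84) for Saa2, -4.42 (SE 0.84) for Saa1, -4.46 (SE 0.90) for Lcn2 and -3.53 (SE 0.62) for Saa3. With these, 8 members were lower by a log2 of at least 1, beside 0.514% of all genes, and those not past the test were Orm2 at -3.78 (SE 0.80), Orm3 at -1.46 (SE 0.48), Orm1 at -1.34 (SE 0.33) and Hp at -1.005 (SE 0.27). Saa4 and Itih4 were at -0.67 and -0.15. The groups did not overlap for 5 members, Saa1, Saa2, Saa3, Lcn2 and Hp, beside 4.67% of all genes lower in HFD without overlap.

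The calls against Con, though not the direction of the larger fold changes, depended on which Con livers were kept. Leaving out any 1 liver gave log2 fold changes of HFD against Con from -7.04 to -4.77 for Saa2, -5.80 to -3.59 for Lcn2, -5.75 to -3.54 for Saa1, -5.06 to -2.95 for Orm2 and -4.69 to -2.75 for Saa3. Without Con replicate 1, or without Con replicate 3, 0 members and 0 of all 10507 genes passed the test. There, 7 and 8 members were at an unadjusted p under 0.05. Nothing is read from such counts, here or in the comparisons with Con livers below, because the members were chosen as high in Con. Without Con replicate 2, 9 members passed the test, beside 1.69% of all genes. Leaving out any single HFD liver left 1, Saa2, beside 0.0857% to 0.162% of all genes. Leaving out replicate 3 of Con and of AOS left 0 (8 at an unadjusted p under 0.05). With Con replicate 2 as the only Con liver, a setting chosen after seeing the data in which that liver is assumed to vary like the other groups, 0 members passed (3 at an unadjusted p under 0.05). The log2 fold changes of HFD against it were -2.94 for Saa2, -1.76 for Lcn2, -1.74 for Saa1, -1.23 for Orm2 and -1.23 for Saa3, and -0.43 to -0.07 for Orm1, Hp and Orm3. Saa4 at 0.07 and Itih4 at 0.27 were higher in HFD than in Con replicate 2, so that 2 of 10 members turned their direction, and the other 8 were smaller in size than with all 3 Con livers.

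Between AOS and Con livers the same Con values were used, so that the fold changes are not independent of those of HFD. In this comparison 2 members were past the test as lower in AOS, beside 0.0381% of all genes, Saa2 at a log2 fold change of -5.24 (SE 0.84) and Saa3 at -3.39 (SE 0.62). Saa1 at -3.85 (SE 0.84), Lcn2 at -3.82 (SE 0.90), Orm2 at -3.53 (SE 0.80) and Orm3 at -1.02 (SE 0.48) were not, so that 6 members were lower by a log2 of at least 1, beside 0.333% of all genes, and the other 4 were at -0.91 to -0.15. Groups did not overlap for Saa1, Saa2, Saa3 and Orm2, 4 members, beside 5.27% of all genes lower in AOS. The count was 0 without Con replicate 1 or 3, without AOS replicate 2 or 3, or without replicate 3 of both. It was 1 without AOS replicate 1 and 9 without Con replicate 2, beside 0.0476% and 1.26% of all genes. Without replicate 3 of both, 6 members were at an unadjusted p under 0.05. Against Con replicate 2 alone the count was 0 (2 at an unadjusted p under 0.05), with Saa2 at -2.50, Saa1 at -1.17, Lcn2 at -1.13, Saa3 at -1.08 and Orm2 at -0.98, while Orm3 at 0.36, Itih4 at 0.28, Orm1 at 0.12 and Hp at 0.12 were higher in AOS, so that 4 of 10 members turned their direction.

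**Figure D5:**
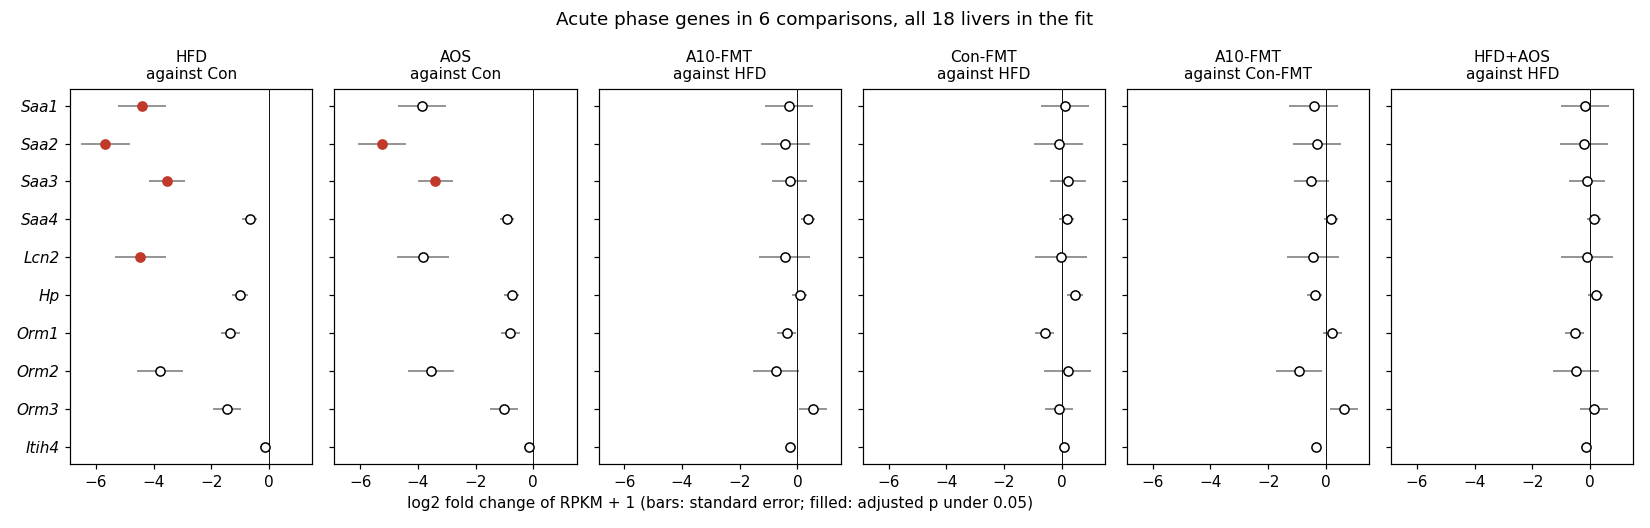
Log2 fold change of RPKM + 1 of each member in 6 comparisons (bars: standard error; filled: adjusted p under 0.05 by limma). Members lie far below 0 only in the comparisons that hold the Con livers, and between -0.94 and 0.64 in the other 4.

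Among the groups on the high fat diet, which hold no Con liver, no member passed the test. Between A10-FMT and HFD livers the members' log2 fold changes went from -0.74 for Orm2 to 0.55 for Orm3, and 0 of 10 were changed, beside 6.6% of all genes (0 at an unadjusted p under 0.05). Between Con-FMT and HFD livers they went from -0.59 for Orm1 to 0.47 for Hp, with 0 changed, beside 0.00952% of all genes (0 at an unadjusted p under 0.05). Between A10-FMT and Con-FMT livers they went from -0.94 for Orm2 to 0.64 for Orm3, with 0 changed, beside 1.68% (0 at an unadjusted p under 0.05, and 4 when only the livers of these 2 groups were in the fit). HFD+AOS against HFD gave -0.52 for Orm1 to 0.19 for Hp, with 0 changed, beside 8.75% (0 at an unadjusted p under 0.05). The fit shares its spread over all 18 livers, the Con livers included, and with only the groups compared A10-FMT against HFD and Con-FMT against HFD each had 1 member at an unadjusted p under 0.05. The standard errors went from 0.16 for Itih4 to 0.90 for Lcn2, with 0.84 for Saa1 and Saa2. A log2 change of 1 in Lcn2, Saa1 or Saa2 was thus close to 1 standard error. Changes larger than this could also have been missed.

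The levels behind these comparisons were close for several members. Itih4 had a mean RPKM of 662 ± 41.7 (SD, n = 3) in HFD, 600.2 ± 85.8 in HFD+AOS, 699 ± 14.2 in Con-FMT and 556 ± 43.0 in A10-FMT, and A10-FMT did not overlap with HFD or Con-FMT. Hp had 1552 ± 104 (SD, n = 3) in HFD and 2144 ± 154 in Con-FMT without overlap, and 1643 ± 231 in A10-FMT, below Con-FMT without overlap. Beside these single cases, 13.4% of all genes were lower in A10-FMT than in HFD, 11.2% lower in A10-FMT than in Con-FMT and 6% higher in Con-FMT than in HFD without overlap. Saa1 had 71.4 ± 4.45 in A10-FMT, 101 ± 40.7 in Con-FMT and 99.7 ± 56.2 in HFD (SD, n = 3), and overlapped between all 3.

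The difference between the effect of AOS on the high fat diet (HFD+AOS against HFD) and the difference of AOS from Con was at a log2 of 1 or more for 7 members, beside 0.78% of all genes, but past the test for 0, beside 0.504%, with 7 members at an unadjusted p under 0.05. It was 5.02 (SE 1.19) for Saa2, 3.73 (SE 1.27) for Lcn2, 3.66 (SE 1.18) for Saa1, 3.28 (SE 0.87) for Saa3, 3.05 (SE 1.13) for Orm2, 1.16 (SE 0.68) for Orm3 and 1.05 (SE 0.36) for Saa4. With Con replicate 2 as the only Con liver these became 2.28, 1.03, 0.98, 0.97, 0.49, -0.23 and 0.31. Without Con replicate 3 and AOS replicate 3 they were 4.58, 3.29, 3.20, 2.93, 2.60, 1.07 and 0.95, with 0 past the test and 5 at an unadjusted p under 0.05. Without Con replicate 2 the test was passed by 7 members, beside 0.819% of all genes.

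Some genes followed the members over the 18 livers. The 8 genes outside the list whose log2 values correlated best with the mean standardised profile of the members were Hpx (r = 0.930), Prtn3 (0.917), Cd14 (0.910), Gm7694 (0.903), Ambp (0.901), Smpd3 (0.890), Crp (0.890) and Mt1 (0.888), and these values are a description. Hpx encodes haemopexin, the plasma carrier of haem, Cd14 a receptor for bacterial lipopolysaccharide, Crp the C-reactive protein, Prtn3 a neutrophil protease, Ambp the precursor of alpha-1-microglobulin and bikunin, Smpd3 a neutral sphingomyelinase and Mt1 a zinc-binding metallothionein. Without Con replicate 3 and AOS replicate 3 the 8 values were 0.842 to 0.906, and without Con replicates 1 and 3 they were -0.06 for Cd14 to 0.66 for Ambp. Among the members, this profile was followed closely by Saa1 (0.984 with all livers, 0.932 without Con replicates 1 and 3) and Lcn2 (0.979 and 0.931) and not by Saa4 (0.722 and -0.09). Each member is itself part of the mean, which raises its r, so these values cannot be set beside those of the 8 other genes.

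Other genes of the acute phase also took their highest or lowest values in Con replicate 1. Of 34 other positive acute phase genes, 32 passed the filter, and 17 of these (53.1%) were highest in Con replicate 1, beside 2.77% of all genes tested. Of 10 negative acute phase genes, 8 were lowest in Con replicate 1 (80%), beside 21% of all genes. The summed RPKM of the negative genes was 57227 in Con replicate 1, 76567 in Con replicate 2 and 65572 in Con replicate 3, against 69107 to 85438 outside Con. Between HFD and Con, 0 of the 32 positive and 0 of the 10 negative genes were changed (10 and 1 at an unadjusted p under 0.05), with a median log2 fold change of -0.09 and 0.11, beside 0.05 over all genes. These lists, like the members, were written with earlier results of the livers known.

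Fga and Fgg, which encode chains of fibrinogen, were lower in 2 of the groups on the high fat diet than in HFD livers. In A10-FMT against HFD, 0 of the 32 other positive genes were higher and 2 lower, a share near the 6.6% of all genes changed. They were Fga with a log2 fold change of -0.77 (SE 0.16, adjusted p = 0.00991) and Fgg with -0.69 (SE 0.15, adjusted p = 0.0131), while Fgb was at -0.52 (adjusted p = 0.0707). Fga had a mean RPKM of 2272 ± 363 (SD, n = 3) in HFD and 1337 ± 251 in A10-FMT. HFD replicate 2 was the highest of the livers outside Con for Fga (2692), Fgb (3875) and Fgg (3438). In HFD+AOS against HFD, where 8.75% of all genes were changed, 0 were higher and 2 lower, again Fga at -0.60 (adjusted p = 0.0302) and Fgg at -0.55 (adjusted p = 0.0364), and Cfb, a complement factor, was at -0.27 (adjusted p = 0.0508). The median over the 32 genes was -0.14 and -0.12 in these comparisons, beside -0.03 and -0.01 over all genes.

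Of the 10 negative acute phase genes, 2 were higher in A10-FMT than in HFD and 0 lower, beside 6.6% of all genes changed. They were Serpina6, which encodes the corticosteroid carrier of plasma, at a log2 fold change of 1.23 (SE 0.30, adjusted p = 0.0239) and Rbp4, the plasma carrier of retinol, at 0.43 (SE 0.11, adjusted p = 0.0261). Apoa1, the main protein of high-density lipoprotein, was at 0.39 (adjusted p = 0.0880). In HFD+AOS against HFD 1 of the 10 was higher, beside 8.75% of all genes changed, Serpina6 at 1.33 (SE 0.30, adjusted p = 0.0146), Rbp4 was at 0.34 (adjusted p = 0.0565) and Apoa1 at 0.36 (adjusted p = 0.109). Serpina6 had a mean RPKM of 131 ± 38.0 in HFD, 331 ± 100.1 in HFD+AOS and 304 ± 55.0 in A10-FMT (SD, n = 3).

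Of 38 genes of acute phase signalling, 30 passed the filter. In A10-FMT against HFD 1 was higher and 1 lower, a share near the 6.6% of all genes changed. The former was Cebpa, a C/EBP transcription factor of hepatocytes, at a log2 fold change of 0.68 (SE 0.16, adjusted p = 0.0181), and the latter Il6st, the signal-transducing subunit of the interleukin 6 receptor, at -0.28 (SE 0.07, adjusted p = 0.0261). Cebpb was at 0.81 (adjusted p = 0.0533). In HFD+AOS against HFD, 1 was higher and 3 lower, beside 8.75% of all genes changed, of which Il6st at -0.28 (adjusted p = 0.0255), Cebpa at 0.62 (adjusted p = 0.0263) and Bcl3, a nuclear regulator of NF-kB, at -0.37 (adjusted p = 0.0401) had the smallest p, and Hnf4a, a nuclear receptor of hepatocytes, was the other. In HFD against Con 0 of the 30 were changed (9 at an unadjusted p under 0.05). Il6, Tnf and Il1b were named after their values were seen. Il6 was listed at 0 in the 3 Con livers and in most of the others. Tnf was also at 0 in Con, with a median of 0.08 in the others. Il1b was at 1.66, 2.44 and 2.45 in Con, beside 0.40 to 3.60 (median 1.05) in the others.

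Other cell types were followed by markers, whose part in the members' levels was not tested. The 11 neutrophil markers summed to an RPKM of 12.02, 3.59 and 8.37 in Con replicates 1, 2 and 3 and to 2.22 to 9.93 in the other livers. The 2 that passed the filter, S100a8 (4.13, 1.91 and 3.08 in Con) and S100a9 (4.94, 0.87 and 3.50), were highest of the 18 livers in Con replicate 1. So were Elane at 0.70 and Mpo, which was at 0.32, 0 and 0.05 in Con. Mmp8 had its highest value, 0.08, in Con replicate 1 and in HFD+AOS replicate 2. Ly6g, at 0.08, 0 and 0 in Con, was higher in another liver, as were Retnlg, Ngp, Camp, Cxcr2 and Csf3r. The 9 markers of Kupffer cells and macrophages summed to 118, 79.8 and 105 in Con and 63.1 to 126 elsewhere. The 8 hepatocyte markers summed to 37128, 51479 and 43324 in Con, so that Con replicates 1 and 3 were below the 44235 to 56531 of the 15 others. Most of this sum was Alb (24367, 37253 and 29412.5 in Con), which is also on the list of negative acute phase genes. Serpina1b is also on the list of other positive ones. The sum thus cannot tell the share of hepatocytes from the levels of such genes. The 7 adipocyte markers summed to 2050.4, 3898 and 2827 in Con and 2196 to 4371 elsewhere, almost all of it from Car3, and Adipoq, Lep, Plin1 and Retn were listed at 0 in the Con livers. A10-FMT replicate 1 was the highest liver for Adipoq (4.42), Cfd (22.1), Plin1 (0.98), Retn (1.75) and Lep (0.23), beside medians of 0 to 0.08 in the livers outside Con. Without it the 2 negative and 2 signalling genes called in A10-FMT against HFD were no longer past the test. Serpina6 was then at 1.13 (adjusted p = 0.0934) and Cebpa at 0.68 (adjusted p = 0.0614). Fga at -0.79 (adjusted p = 0.0357) and Fgg at -0.74 (adjusted p = 0.0341) still passed. A loss of calls was not particular to this liver. Over all genes the calls fell from 693 to 289 in its absence. They fell to 271 when replicate 2 of A10-FMT was dropped instead, and to 323 and 334 for replicates 2 and 3 of HFD. Dropping replicate 3 of A10-FMT or replicate 1 of HFD raised them to 1218 and 1076. Whether the adipocyte markers bear on the lost calls was not tested. Stellate cell, lymphocyte, and pancreas and gut markers summed to 73.8 to 84.9, 2.33 to 2.93 and 67.7 to 98.0 in Con, beside 73.8 to 118, 1.68 to 6.51 and 93.9 to 152 in the others. Most of the stellate cell sum was Dcn (61.6, 71.6 and 61.4 in Con). Nearly all of the pancreas and gut sum was Cela1 (30.8, 40.5 and 36.3) and Fabp2 (36.6, 57.4 and 48.4). Cpa1, Pnlip, Prss2, Amy2a5, Vil1 and Muc2 were at 0.27 or less in Con.

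The DNA before their start sites was read for 4 motifs of the acute phase response, on both strands. RefSeq (GRCm38.p6) gave a promoter for 8 of the 10 members, and the 200 bases from 250 to 51 bases before the start were searched. TTNNGCAA, a pattern of C/EBP sites, was in 7 of 8, beside 8.11% of 32851 promoters searched alike, and the exception was Itih4. TTCNNNGAA (STAT) was in 0 of 8, beside 5.76%, an NF-kB pattern of 10 letters in 0 of 8, beside 1.05%, and CTGGGA, the core of interleukin 6 response elements, in 1 of 8 (Itih4), beside 22.1%. A match is a run of letters and not a shown site, and the promoters of relatives are not independent, with 93.5% identity between Saa1 and Saa2 and 85.3% between Orm2 and Orm3. Both pairs are printed because the levels of near relatives are compared above, with the C/EBP match in capitals. They are Saa1 (chr7:46743031-46743230, minus strand), Saa2 (chr7:46751583-46751782, plus strand), Orm2 (chr4:63362199-63362398, plus strand) and Orm3 (chr4:63355908-63356107, plus strand).
Saa1: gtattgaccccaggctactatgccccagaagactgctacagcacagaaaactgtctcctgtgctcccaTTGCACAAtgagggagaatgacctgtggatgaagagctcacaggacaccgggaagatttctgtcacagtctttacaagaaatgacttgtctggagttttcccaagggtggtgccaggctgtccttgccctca
Saa2: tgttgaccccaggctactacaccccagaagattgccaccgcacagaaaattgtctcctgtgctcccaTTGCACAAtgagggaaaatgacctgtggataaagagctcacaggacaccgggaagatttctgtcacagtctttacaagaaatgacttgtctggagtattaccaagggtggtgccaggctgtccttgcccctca
Orm2: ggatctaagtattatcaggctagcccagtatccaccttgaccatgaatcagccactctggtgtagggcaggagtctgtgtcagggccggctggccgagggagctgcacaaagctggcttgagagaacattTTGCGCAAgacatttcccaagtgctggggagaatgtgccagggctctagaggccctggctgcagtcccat
Orm3: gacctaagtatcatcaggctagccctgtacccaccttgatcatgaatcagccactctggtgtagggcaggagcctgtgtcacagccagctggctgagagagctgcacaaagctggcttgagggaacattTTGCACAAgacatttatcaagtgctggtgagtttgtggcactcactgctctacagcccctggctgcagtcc

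The match lay 182 and 183 bases before the start in Saa1 and Saa2 and 120 and 121 bases before it in Orm2 and Orm3, at nearly the same place in each pair. Saa3, Saa4 and Lcn2 had theirs 99, 245 and 216 bases before the RefSeq start. For Lcn2 the window lies within the span of the gene in GENCODE, where another transcript starts further upstream. Saa4, at 2.23, 0.898 and 1.68 times the median of the 15 livers outside Con in Con replicates 1, 2 and 3, held a match. So did Orm3, the lowest member, and Saa2, the member with the widest range. Whether a match bears on the level of a member was not tested. The other members lie at chr2:32384633-32388252 (Lcn2, minus strand), chr8:109575128-109579172 (Hp, minus strand) and chr14:30886476-30902353 (Itih4, plus strand).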

How the data were processed

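RNA of 18 mouse livers was sequenced. Reads were aligned to genes by the authors (SOAPaligner, every hit of a read kept). The deposited RPKM values have 2 decimals and fill 19057 lines. The submitters' processing notes name Bowtie 0.12.2 and mm10. The unit comes from the paper's methods, not the table's header. Read numbers were not used here, so the depth is unknown, and DEGseq, which needs them, was not run.

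The members and all gene lists were chosen with earlier results of these data known, and no pattern here is independent support for them. Groups came from the labels. Values were log2(RPKM + 1) as deposited, and a fold change on this scale understates that of low genes. The 10507 lines with 3 or more livers at an RPKM of 1 or more were fitted with 6 group means over 18 livers (limma 3.58.1 in R 4.3.3, lmFit, eBayes with trend), with Benjamini-Hochberg adjustment in each of 7 comparisons and a threshold of 0.05.

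Members are given by their level in every liver, with a fold change and SE where its log2 is at least 1 or its adjusted p is under 0.05, and otherwise as a range. The p-values of single members against Con are not printed, since Con levels were known at the choice. Of the other lists, counts are given with the up to 3 genes of smallest unadjusted p where any changed. The 8 genes of most similar profile were taken by Pearson's r with the mean standardised log2 profile of the members. Other named genes were chosen after their values were seen. Places and coding sequences are from GENCODE M21 (GRCm38), promoters from RefSeq. Python 3.11.15, pandas 2.3.3, biopython 1.88 and matplotlib 3.10.9 were used. For HFD against Con simulated with 10507 genes, 98 of 100 true log2 changes of size 2 were called and 96 of 100 of size 1. None (0) had its direction turned, and 12 genes without a change were called. The simulation gave each gene the same spread in all groups, with independent livers, so its recovery does not carry over to the members. Their SD in Con had a median of 1.64, and Orm2 at -3.78 was not past the test in the livers themselves. Alternatives were another pseudocount, no filter, equal medians, a replicate block, fewer groups in the fit, the paper's cut-offs and livers left out.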

Additional observations from a re-analysis of the deposited data

How the results depend on the processing

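Of the members changed between HFD and Con, 4 in the fit reported, 1 was left with no filter on low values, 2 with the replicate block, and 0 with only the groups compared, without Con replicate 3 and AOS replicate 3, without Con replicates 1 and 3 (added after seeing the data), and at an adjusted p of at most 0.001 with a log2 of at least 1. Leaving out 1 liver gave 0 to 9, with 9 without Con replicate 2 (beside 1.69% of all genes), 0 without Con replicate 1 or 3 and 1 without any HFD liver. Between AOS and Con, 2 in the fit reported, 1 was left with no filter and 1 with medians set equal, and 0 with only the groups compared, without Con replicate 3 and AOS replicate 3, without Con replicates 1 and 3, and at the stricter cut-offs. Leaving out 1 liver gave 0 to 9, with 9 without Con replicate 2 (beside 1.26% of all genes), 1 without AOS replicate 1 and 0 without AOS replicate 2 or 3. The difference between the AOS effects went from 0 to 7 members without Con replicate 2, beside 0.819% of all genes. A pseudocount of 0.1 changed no member call. The cause of these changes was not tested.

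Without Con replicates 1 and 3, Orm3 turned to 0.36 in AOS against Con and to -0.23 in the difference between the AOS effects, with ranges of -1.71 to -0.51 and 0.64 to 1.85 on leaving out 1 liver. In the same setting HFD against Con turned for Saa4 (0.07) and Itih4 (0.27), AOS against Con for Hp (0.12), Orm1 (0.12) and Itih4 (0.28), and the difference for Orm1 (-0.65). Without Con replicate 1 alone, Itih4 turned in HFD (0.01) and in AOS (0.01) against Con, and Orm1 in the difference (-0.10). The difference of Itih4, which was near 0, turned to 0.04 to 0.21 with equal medians and without any 1 of 5 livers. Con means moved with the liver left out, from 2063 to 5422 for Saa2 (3714 with all) and from 1933 to 4996 for Saa1 (3429 with all). The replicate numbers share no pairing by the data (correlations of same-numbered livers from -0.177 to 0.225), and the block changed no other member count.

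Genes of the other lists lost calls too. The 2 positive, 2 negative and 2 signalling genes changed in A10-FMT against HFD became 0 to 3 when 1 liver was left out. The 2, 1 and 4 in HFD+AOS against HFD became 0 to 3, 0 to 2 and 0 to 4. With only the groups compared, 11 of 18 named values of these lists fell short of the threshold. Over all genes, the number changed between A10-FMT and HFD was 693, and 78 with only the groups compared, 1070 with equal medians and 271 to 1218 with 1 liver left out. For HFD+AOS against HFD it was 919, and 320 to 1287. For A10-FMT against Con-FMT it was 177, and 4 to 564. For Con-FMT against HFD it was 1, and 1 to 13. For HFD against Con it was 40, and 0 to 178, for AOS against Con 14, and 0 to 132, and for the difference between the AOS effects 53, and 15 to 186. Low values such as those of Orm3 are limited by the unknown depth.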

Other observations

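Ranked by the excess of Con replicate 1 over the median of the 15 livers outside Con on the log2(RPKM + 1) scale, the 20 leading genes of 10507 held 7 members and 13 other genes, all 13 named here after their values were seen. Saa2 (7.73), Lcn2 (6.58), Saa1 (6.32), Orm2 (5.94) and Saa3 (5.11) took the ranks 1 to 5. Nnmt, which methylates nicotinamide, followed at 4.51, then the metallothioneins Mt1 (4.31) and Mt2 (4.06). C1rb (3.08), Moxd1 (2.96), Cd14 (2.85), Prtn3 (2.72), Mup2 (2.67), Mup19 (2.51), Mup17 (2.46), Cyp3a11 (2.45), Apcs (2.43) and Gstp2 (2.31) made up the rest, and the Mup genes, major urinary proteins, are another family of near-identical copies that can share reads. The lower-ranked members were Orm3 (2.50), Orm1 (2.43), Hp (1.501), Saa4 (1.15) and Itih4 (0.54), at ranks 15, 19, 45, 68 and 258.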
